A study of Mus musculus with 9 samples.

Results

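Autophagy genes were followed here in mouse corneal epithelial cells cultured at 3 oxygen levels: 37 genes of the machinery that builds autophagosomes, together with adaptors that bind cargo. The genes were given as a list of names, and all 37 were found among the 26445 entries of the expression table. All 37 also passed the filter on low values, which kept 11856 genes. The cells were the line iCell-0093a, of WT genotype, kept at 1%, 8% or 21% oxygen, with 3 libraries of polyadenylated RNA per level. Per its title, the series asks about mitophagy and mitochondrial genes in cells kept at low oxygen. The labels give neither the time spent at each oxygen level nor whether the 3 libraries of a level came from separate cultures. P-values therefore measure the spread between these libraries alone, part or all of which may be technical. Expression is given as FPKM, in which fragments are divided by transcript length and by the mapped fragments of the library, so levels of different genes are compared per length.

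Macroautophagy encloses cytoplasm in a double membrane, the autophagosome, which then fuses with the lysosome. The ULK kinase complex starts the process under the control of nutrient and energy kinases, and a class III phosphatidylinositol kinase complex around Beclin marks the membrane with a lipid. ATG2, ATG9 and WIPI proteins then enlarge the cup-shaped phagophore, and a ubiquitin-like conjugation system attaches LC3 and GABARAP proteins to it, to which adaptors such as p62 tether their cargo. Much of this process is controlled on proteins rather than on messenger RNA, so transcript levels do not measure autophagic flux.

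The cells expressed all 6 simple epithelial markers examined, with summed levels of 1472 to 1697 FPKM at 1%, 1518 to 1530 FPKM at 8% and 1195 to 1540 FPKM at 21% oxygen. Only 3 of 6 corneal and basal epithelial markers passed the filter, and Pax6 and Trp63, which define corneal and basal epithelium, stayed at or below 0.0208 and 0.836 FPKM. The 3 that passed were Krt14, a basal keratin, with a mean of 67.2 FPKM, Klf4 with 12.2 FPKM and Aldh3a1, an abundant corneal enzyme, with 3.03 FPKM. Krt15, the remaining marker of the list, did not exceed 0.116 FPKM. The list thus bore out the corneal label only in part, since Pax6 was nearly absent and Aldh3a1 was low. The replicates at 21% oxygen were the most spread: the median coefficient of variation over the 37 genes was 4.18% at 1%, 4.68% at 8% and 7.41% at 21% oxygen. In 21% replicate 3, 14 DNA replication genes summed to 387 FPKM, against 199 and 144 FPKM in 21% replicates 1 and 2. The same sum was 171 to 210 FPKM at 1% and 129 to 132 FPKM at 8% oxygen, and 9 of the 37 autophagy genes had their lowest value in 21% replicate 3. The part of these differences in the results below was not tested. For the 37 genes and the other autophagy genes named, each call between 2 levels that was lost without a single library is marked. Such checks are not given for the hypoxia response genes or for Rheb at 8% against 21% oxygen.

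Between 8% and 21% oxygen, 9 of the 37 genes changed (24.3%), 6 of them higher and 3 lower at 8%. Higher were the kinase gene Ulk1, the lipid transfer gene Atg2a, the LC3 and GABARAP family genes Map1lc3a, Gabarap and Gabarapl1, and the adaptor gene Calcoco1, while Ulk2, Atg3 and Atg5 were lower. The test was limma's moderated test on log2(FPKM + 1) with Benjamini-Hochberg adjustment over all tested genes, called at an adjusted p of 0.05. It called 23.3% of all tested genes in this comparison, 8.38% higher and 14.9% lower, so the overall share of autophagy genes called was close to the background. By direction, 16.2% of the 37 were higher and 8.11% lower. At an unadjusted p of 0.05 the shares were 35.1% of the 37 and 38% of all tested genes. As a median, the log2 fold change was 0.06 over the 37 and −0.04 over all tested genes.

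Between 1% and 21% oxygen, 2 of the 37 changed (5.41%), against 4.24% of all tested genes, 1.35% higher and 2.89% lower. Gabarap was higher and Atg3 lower at 1%, and the median log2 fold change was 0.0039 over the 37 genes and −0.05 over all tested genes. Between 1% and 8% oxygen limma called none of the 37 genes, against 0.127% of all tested genes, 0.0675% higher and 0.059% lower. At an unadjusted p of 0.05, that comparison held 5 of the 37 (13.5%), against 19% of all tested genes. A moderated F test across the 3 levels called 8 of the 37 (21.6%), against 16.3% of all genes. The 1% and 8% comparisons share the 21% libraries and are given side by side. In bulk RNA, fewer cells of a type and less RNA per cell cannot be told apart.

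**Figure D1:**
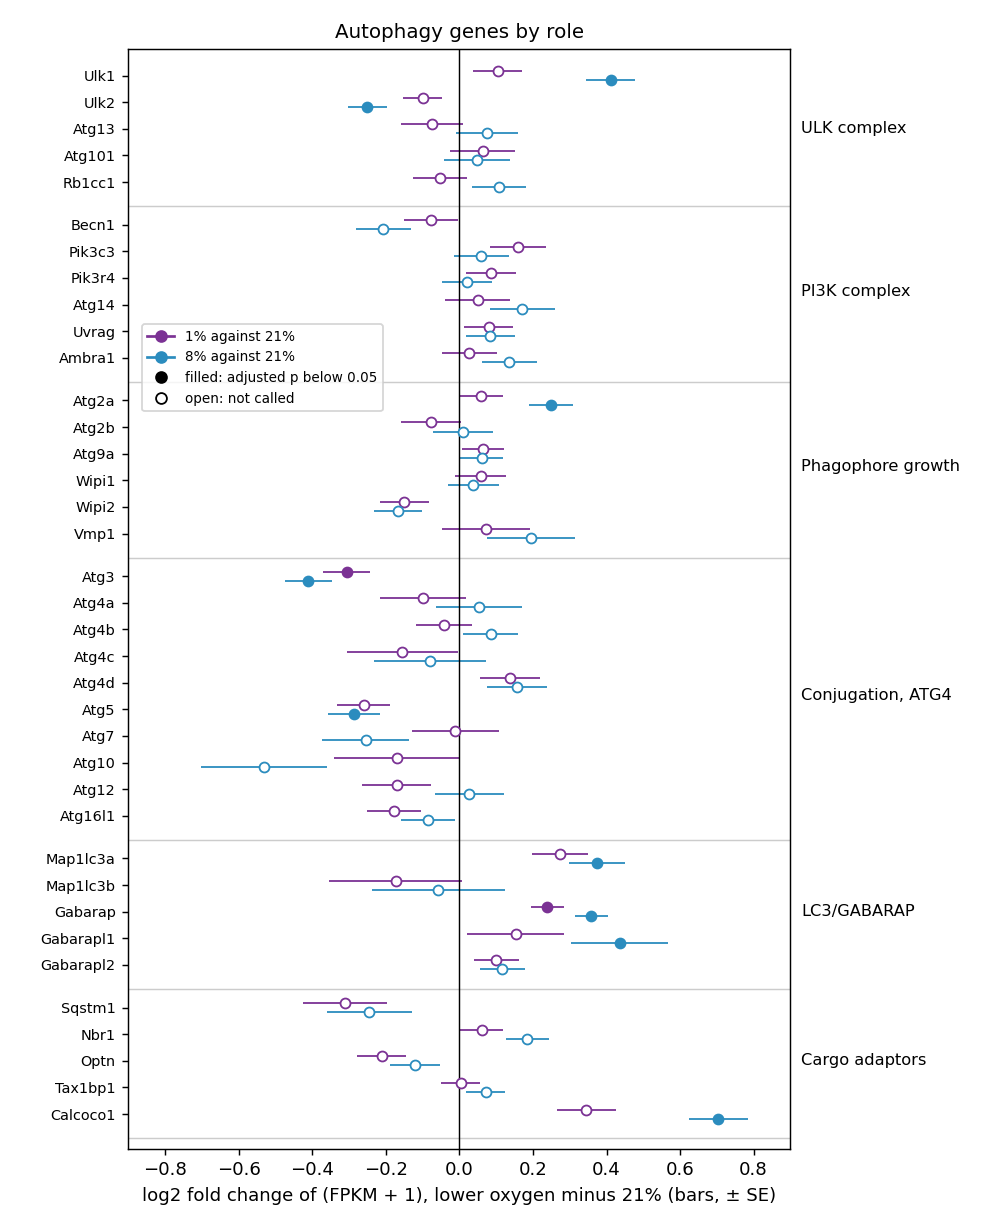
Log2 fold change of (FPKM + 1) for each of the 37 genes by role, at 1% against 21% (purple) and 8% against 21% oxygen (blue), with standard errors from the shared model of 9 libraries; filled points passed an adjusted p of 0.05. The 9 filled blue points lie on both sides of 0, and Atg3 and Gabarap are the genes with filled purple points.

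The ULK complex joins the kinase ULK1 or ULK2 to the scaffold proteins ATG13, ATG101 and FIP200, the last encoded by Rb1cc1. Of its 5 genes, 1 rose and 1 fell at 8% against 21% oxygen, where 23.3% of all genes were called, and none passed the test at 1% against 21%, where 4.24% were. The 2 that changed were the alternative kinases, and they changed in opposite directions. Ulk1 (chromosome 5, 110784488 to 110810097, GRCm38) had 7.89, 7.59 and 7.52 FPKM at 1%, 9.31, 9.51 and 10.4 FPKM at 8%, and 6.80, 6.75 and 7.67 FPKM at 21% oxygen. Every 8% library was above every other library, while the 1% and 21% libraries overlapped. Its log2 fold change was 0.41 ± 0.07 (SE, adjusted p = 0.00515) at 8% against 21% and 0.10 (adjusted p = 0.391) at 1% against 21%. Ulk2 (chromosome 11, 61775649 to 61855073) had 10.3, 9.82 and 9.97 FPKM at 1%, 9.27, 8.68 and 8.87 FPKM at 8%, and 10.6, 10.6 and 11.3 FPKM at 21% oxygen. No pair of levels overlapped for Ulk2, with 8% lowest and 21% highest. The log2 fold change was −0.25 ± 0.05 (SE, adjusted p = 0.0132) at 8% against 21% and −0.10 (adjusted p = 0.298) at 1% against 21%. As a ratio of FPKM, Ulk1 to Ulk2 was 0.764 ± 0.0094 at 1%, 1.09 ± 0.083 at 8% and 0.653 ± 0.023 at 21% oxygen (SD, n = 3 each). Ulk1 FPKM was thus above Ulk2 FPKM in each 8% library, though nearly equal in replicate 1 (ratio 1.005), and below it in each of the others. Atg13, Atg101 and Rb1cc1 averaged 10.4, 12.5 and 2.72 FPKM over the 9 libraries, with adjusted p of 0.323 or more at 8% against 21% oxygen.

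The class III phosphatidylinositol kinase complexes contain the lipid kinase VPS34, encoded by Pik3c3, its partner encoded by Pik3r4, Beclin encoded by Becn1, and either ATG14 or UVRAG, while AMBRA1 binds Beclin. None of these 6 genes passed the test in any comparison, against the background shares given above, and their median log2 fold changes were 0.06 at 1% and 0.07 at 8% against 21% oxygen. The nearest to the threshold was Becn1, with 7.97 ± 0.66 FPKM at 1%, 7.19 ± 0.17 FPKM at 8% and 8.46 ± 0.63 FPKM at 21% oxygen (SD, n = 3 each). The 8% and 21% libraries of Becn1 did not overlap, but the adjusted p was 0.0758 by limma. Pik3c3 had 4.66, 4.77 and 4.74 FPKM at 1%, 4.18, 4.45 and 4.39 FPKM at 8% and 4.16, 3.64 and 4.61 FPKM at 21% oxygen. Its 1% libraries lay above all others without passing the test (adjusted p = 0.248 against 21%). Pik3r4 had the lowest level of the 37 genes, with a mean of 1.73 FPKM, and Ambra1, Uvrag and Atg14 averaged 7.32, 6.88 and 3.67 FPKM.

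The genes of phagophore growth encode the lipid transfer proteins ATG2A and ATG2B, the scramblases ATG9A and VMP1, and the lipid-binding proteins WIPI1 and WIPI2. Of these 6 genes, 1 changed, at 8% against 21% oxygen (16.7%, against 23.3% of all genes). Atg2a (chromosome 19, 6241668 to 6262335) had 6.28, 6.72 and 6.55 FPKM at 1%, 8.03, 7.12 and 7.58 FPKM at 8%, and 6.41, 6.10 and 6.12 FPKM at 21% oxygen. All 8% libraries were above all others, and 1% overlapped 21%. The log2 fold change was 0.25 ± 0.06 (SE, adjusted p = 0.0209) at 8% against 21% oxygen, and the call was lost without 8% replicate 1 (adjusted p = 0.0741) or 8% replicate 3 (adjusted p = 0.062). Its paralog Atg2b had 5.53 ± 0.29 FPKM at 8% and 5.502 ± 0.64 FPKM at 21% oxygen (SD, n = 3 each). Reads of Atg2b may be shared with Gskip, which overlaps its exons on the other strand and averaged 5.84 FPKM. Wipi2 had 11.95 ± 0.45 FPKM at 1%, 11.8 ± 0.93 FPKM at 8% and 13.4 ± 0.48 FPKM at 21% oxygen (SD, n = 3 each), with no overlap of either lower level with 21% and adjusted p of 0.218 and 0.1. Vmp1 had 43.9 FPKM in 8% replicate 2 and 29.2 to 33.6 FPKM in the other 8 libraries. Atg9a lay between 6.83 and 7.89 FPKM and Wipi1 between 15.4 and 18.2 FPKM in all 9 libraries.

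The conjugation system consists of the E1-like enzyme ATG7, the E2-like enzymes ATG3 and ATG10, and the ATG12, ATG5 and ATG16L1 proteins that together act as the ligase. The ATG4 proteases trim LC3 and GABARAP and remove them from the membrane. Of these 10 genes, 2 fell (20.0%) and none rose at 8% against 21% oxygen, against 14.9% lower and 8.38% higher over all genes. At 1% against 21%, 1 of the 10 fell, against 2.89% of all genes. The median log2 fold changes of the group were −0.16 at 1% and −0.08 at 8% against 21% oxygen, and 9 of its 10 estimates were negative at 1%, where 60% of all tested genes had negative estimates. Atg3 (chromosome 16, 45158785 to 45188538) had 12.8, 12.7 and 13.6 FPKM at 1%, 12.1, 12.5 and 11.6 FPKM at 8%, and 17.8, 15.7 and 15.7 FPKM at 21% oxygen. Every library at either lower level was below every 21% library. The log2 fold change was −0.31 ± 0.06 (SE, adjusted p = 0.042) at 1% and −0.41 ± 0.06 (adjusted p = 0.00472) at 8% against 21% oxygen. The 8% call was kept under all 18 alternatives. The 1% call was lost without any single library except 21% replicate 3, with adjusted p between 0.0563 and 0.148, and under either rescaling (adjusted p = 0.0598 and 0.0662). Atg5 (chromosome 10, 44268358 to 44364291) had 10.3, 9.004 and 8.76 FPKM at 1%, 9.33, 8.66 and 9.47 FPKM at 8%, and 11.8, 11.5 and 10.8 FPKM at 21% oxygen. Neither lower level overlapped 21%, and the 1% and 8% libraries overlapped each other.

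For Atg5 the log2 fold change was −0.26 (adjusted p = 0.0779) at 1% and −0.29 ± 0.07 (SE, adjusted p = 0.0243) at 8% against 21% oxygen. The 8% call was lost without any one 8% library (adjusted p = 0.0602, 0.0746 and 0.0539) and without 21% replicate 1 (adjusted p = 0.076), and after quantile normalization (adjusted p = 0.0525). Atg10 had the largest estimate of the group and did not pass: 2.37, 3.07 and 2.71 FPKM at 1%, 1.39, 2.21 and 2.14 FPKM at 8% and 3.82, 3.58 and 2.29 FPKM at 21% oxygen. Its log2 fold change was −0.53 ± 0.17 (SE, adjusted p = 0.0563) at 8% against 21%, with the 8% libraries below all others. Without 21% replicate 3 Atg10 was among the genes called at 8% against 21% oxygen. Atg7 had 3.26 ± 0.18 FPKM at 1%, 2.63 ± 0.61 FPKM at 8% and 3.30 ± 0.21 FPKM at 21% oxygen (SD, n = 3 each). The 4 ATG4 protease genes ranged from a mean of 1.79 FPKM for Atg4a to 6.54 FPKM for Atg4c, and none passed the test in any comparison. Reads of Atg4d may be shared with Kri1, which overlaps it on the other strand and averaged 12.7 FPKM. Atg12 and Atg16l1 averaged 5.21 and 2.43 FPKM, with adjusted p of 0.866 and 0.436 at 8% against 21% oxygen.

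The regions in front of Atg3 and Atg5, the conjugation genes that fell, and of Calcoco1, the gene with the largest rise, are shown because they differ in the sequence CACGTG, the core of the element bound by the TFEB family of autophagy and lysosome regulators. The sequences are from RefSeq on GRCm38.p6, 5′ to 3′ on the gene's strand. Capitals mark CACGTG and the forms ACGTG and GCGTG of the hypoxia response element core, on either strand, and every CACGTG also holds ACGTG. The Atg3 region is chr16:45158579-45158784 on the plus strand, the Atg5 region chr10:44268089-44268338 on the plus strand, and the Calcoco1 region chr15:102722179-102722428 on the minus strand.
Atg3: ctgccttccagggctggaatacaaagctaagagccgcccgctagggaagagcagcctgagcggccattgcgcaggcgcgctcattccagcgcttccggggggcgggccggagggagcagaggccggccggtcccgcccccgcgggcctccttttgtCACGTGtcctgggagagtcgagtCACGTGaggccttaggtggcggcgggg
Atg5: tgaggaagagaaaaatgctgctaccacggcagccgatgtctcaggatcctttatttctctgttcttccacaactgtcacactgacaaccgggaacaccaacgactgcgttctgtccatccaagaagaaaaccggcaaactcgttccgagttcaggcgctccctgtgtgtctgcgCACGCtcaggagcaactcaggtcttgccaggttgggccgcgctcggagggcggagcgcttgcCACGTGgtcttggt
Calcoco1: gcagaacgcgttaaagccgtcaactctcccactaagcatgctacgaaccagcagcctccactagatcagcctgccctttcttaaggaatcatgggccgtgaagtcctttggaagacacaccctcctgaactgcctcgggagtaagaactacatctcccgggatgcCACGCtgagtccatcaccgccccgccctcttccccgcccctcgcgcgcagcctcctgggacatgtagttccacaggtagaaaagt
Atg3 holds CACGTG at 94 and 71 bases before its RefSeq start, each time as GTCACGTG, and Atg5 holds it 14 bases before its start. The Atg5 and Calcoco1 regions also hold GCGTG in the form CACGC, and Calcoco1 holds no CACGTG or ACGTG in this window. Windows of 250 bases before the start were found for 31 of the 37 autophagy genes. Some genes have more than 1 start, giving 37 windows in all, of which 3 (8.11%) hold CACGTG, in Atg3, Atg5 and Atg7. The share was 6.02% of all 32851 windows and 8.55% of the 10634 windows of tested genes, so the autophagy genes were close to the tested background. The contrast shown does not hold for all genes: Ulk2 also fell at 8% and held no CACGTG, and Atg7 held it and was not called. ACGTG was in 35.1% of the windows of the 31 genes, in 22.3% of those of tested genes and in 16.6% of all windows, and GCGTG in 59.5%, 46.5% and 28.2%. These are matches of letters in a window and say nothing on binding.

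The LC3 and GABARAP proteins are the ubiquitin-like proteins that become attached to the autophagosome membrane, where they bind adaptors and the lysosomal fusion machinery. Of the 5 genes, 3 rose and none fell at 8% against 21% oxygen, with a median log2 fold change of 0.36, and 1 rose at 1% against 21%, with a median of 0.15. Over all genes 8.38% rose at 8% and 1.35% at 1% against 21% oxygen. Gabarap (chromosome 11, 69991143 to 69994951) had 60.7, 62.1 and 59.0 FPKM at 1%, 64.2, 66.9 and 66.7 FPKM at 8%, and 50.9, 51.6 and 51.1 FPKM at 21% oxygen. No pair of levels overlapped, and the order was 8%, then 1%, then 21%. Gabarap had a log2 fold change of 0.24 ± 0.04 (SE, adjusted p = 0.0294) at 1% and 0.36 ± 0.04 (adjusted p = 0.00217) at 8% against 21% oxygen. The 8% call was kept under all 18 alternatives. The 1% call was lost without any 1% library (adjusted p = 0.114, 0.125 and 0.058), without 8% replicate 1 or 3 (0.0614 and 0.052) and without 21% replicate 1 or 2 (0.0922 and 0.052). Map1lc3a (chromosome 2, 155276297 to 155278073), which encodes LC3A, had 8.49, 8.58 and 8.51 FPKM at 1%, 8.99, 8.85 and 9.81 FPKM at 8%, and 6.68, 7.74 and 6.29 FPKM at 21% oxygen. All 1% and 8% libraries were above all 21% libraries.

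Map1lc3a had a log2 fold change of 0.37 ± 0.08 (SE, adjusted p = 0.0114) at 8% against 21% and 0.27 ± 0.08 at 1% against 21%, where the adjusted p was 0.0786. Without 21% replicate 2 the 1% comparison of Map1lc3a was called (adjusted p = 0.0412). Gabarapl1 (chromosome 6, 129533160 to 129542346) had 37.3, 39.3 and 44.6 FPKM at 1%, 48.6, 48.3 and 50.8 FPKM at 8%, and 38.1, 42.9 and 28.8 FPKM at 21% oxygen. The 8% libraries were above all others, while 1% overlapped 21%, where replicate 3 was lowest. Its log2 fold change of 0.44 ± 0.13 (SE, adjusted p = 0.0459) at 8% against 21% was the weakest of the 9 calls: it was lost without any single library other than 21% replicate 2, with adjusted p between 0.0541 and 0.121. Gabarapl2 had 21.4 ± 1.15, 21.6 ± 0.95 and 19.9 ± 0.91 FPKM at 1%, 8% and 21% oxygen (SD, n = 3 each), with adjusted p of 0.369 and 0.201 against 21%. Map1lc3b, which encodes LC3B, the protein commonly blotted in autophagy assays, had 8.36 to 9.25 FPKM at 1%, 9.29 to 10.1 FPKM at 8%, and 14.5, 7.67 and 9.199 FPKM at 21% oxygen. The 21% libraries of Map1lc3b spanned those of the other levels, and its adjusted p was 0.615 at 1% and 0.848 at 8% against 21%. Reads of Map1lc3b may be shared with Zcchc14, which overlaps it on the other strand and averaged 11.9 FPKM.

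Summed over the 5 genes, the family had 137, 139 and 143 FPKM at 1%, 152, 157 and 158 FPKM at 8%, and 131, 129 and 115 FPKM at 21% oxygen. The levels did not overlap, with 8% highest and 21% lowest. Gabarap and Gabarapl1 together made up 72.3% ± 0.58 of the sum at 1%, 74.0% ± 0.47 at 8% and 70.2% ± 2.67 at 21% oxygen (SD, n = 3 each). LC3B was thus a small part of the family's transcripts, at 6.34% ± 0.43, 6.22% ± 0.29 and 8.34% ± 2.58 at 1%, 8% and 21% oxygen. No test was made on these sums and shares.

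**Figure D2:**
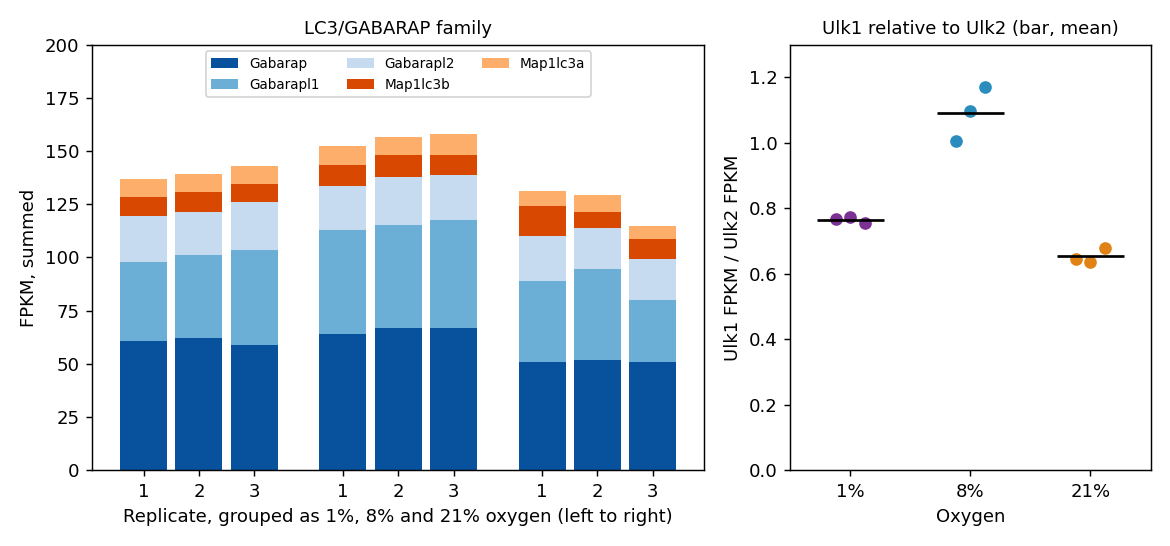
Left, FPKM of the 5 LC3 and GABARAP genes stacked for each library, in the order 1%, 8% and 21% oxygen; right, the ratio of Ulk1 to Ulk2 FPKM in each library, with the mean as a bar. The family sum was 152 to 158 FPKM at 8%, above all other libraries. The Ulk1 to Ulk2 ratio was above 1 in each 8% library, but only 1.005 in 8% replicate 1.

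Cargo adaptors bind ubiquitinated or other cargo with one end and LC3 or GABARAP with the other. Of the 5 adaptor genes, 1 changed, upwards, at 8% against 21% oxygen (20.0%, against 23.3% of all genes called), and none passed at 1% against 21%, against 4.24% of all genes. Calcoco1 encodes an adaptor that takes part in the turnover of endoplasmic reticulum and Golgi. Calcoco1 (chromosome 15, 102706777 to 102722178) had 13.2, 13.95 and 14.3 FPKM at 1%, 17.8, 18.1 and 18.1 FPKM at 8%, and 11.4, 11.4 and 9.26 FPKM at 21% oxygen. No pair of levels overlapped, and 8% was highest. At 8% against 21% the mean was 1.68-fold higher, with a log2 fold change of 0.70 ± 0.08 (SE, adjusted p = 0.00165), and the call was kept under all 18 alternatives. This was the largest absolute value of the 37 genes on the log2(FPKM + 1) scale, which understates low genes. The plain ratio of means for Atg10 was 0.592. At 1% against 21% oxygen the log2 fold change of Calcoco1 was 0.34 ± 0.08, with an adjusted p of 0.0516. That comparison was called without 21% replicate 3 (adjusted p = 0.0339), after median-ratio rescaling (0.0355), after quantile normalization (0.0444) and with a mean of at least 5 FPKM (0.0379).

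Sqstm1, which encodes p62, the adaptor for ubiquitinated proteins, had the highest level of the 37 genes. It had 174, 167 and 209 FPKM at 1%, 186, 195 and 193 FPKM at 8%, and 238, 253 and 193 FPKM at 21% oxygen. The 21% replicates 1 and 2 were above all others, and 21% replicate 3 lay among the lower-oxygen libraries, so the levels overlapped. Sqstm1 had log2 fold changes of −0.31 ± 0.12 (SE, adjusted p = 0.154) at 1% and −0.25 ± 0.12 (adjusted p = 0.157) at 8% against 21% oxygen. Without 21% replicate 3 both passed, with adjusted p of 0.0421 and 0.0364. Sqstm1 made up 76.3% ± 2.29 of the FPKM of the 5 adaptors at 1%, 74.9% ± 0.85 at 8% and 80.8% ± 1.97 at 21% oxygen (SD, n = 3 each). Nbr1, which encodes an adaptor that works beside p62, had 21.1 ± 0.25 FPKM at 1%, 23.1 ± 1.60 FPKM at 8% and 20.2 ± 0.53 FPKM at 21% oxygen (SD, n = 3 each). Both lower levels were above 21% in every library, with adjusted p of 0.582 at 1% and 0.0538 at 8%. At 8% against 21% Nbr1 was among the genes called without 8% replicate 2, after either rescaling and with a mean of at least 5 FPKM. Optn, which encodes optineurin, an adaptor of mitophagy, had 6.27 ± 0.26, 6.75 ± 0.45 and 7.42 ± 0.43 FPKM at 1%, 8% and 21% oxygen (SD, n = 3 each), and the adjusted p was 0.11 at 1% and 0.229 at 8% against 21%. Tax1bp1 lay between 14.8 and 16.6 FPKM in all 9 libraries.

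**Figure D3:**
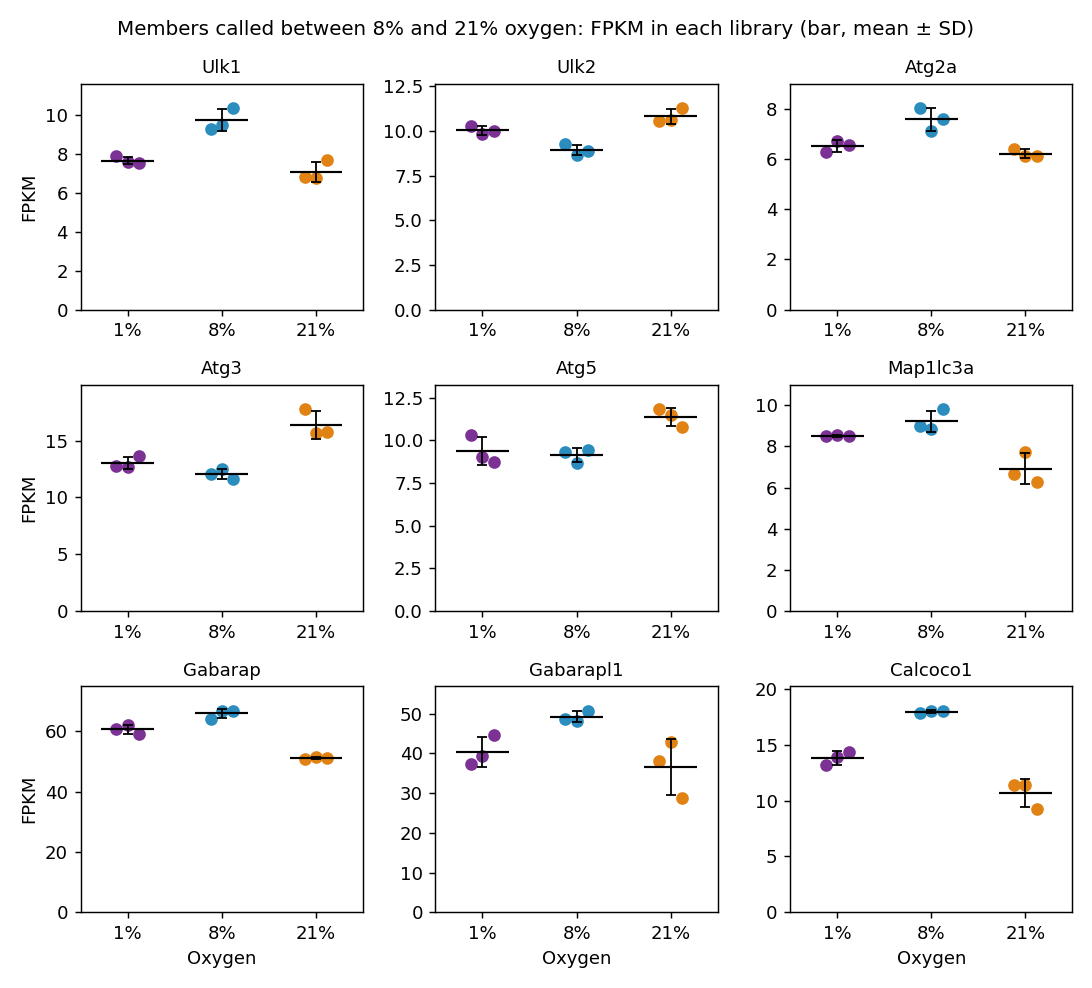
FPKM in each library of the 9 genes called between 8% and 21% oxygen, at 1%, 8% and 21%, with the mean and SD of 3 libraries as bars. The genes were chosen by the test on these same 8% and 21% values, so the lack of overlap between those libraries adds no support. The 1% mean lay between the other means in each, as in 88.2% of all genes called in that comparison.

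The 8% mean was the highest of the 3 in 20 of the 37 genes (54.1%) and the lowest in 7 (18.9%). Over all tested genes it was the highest in 35.0% and the lowest in 40.6%. The mean at 1% lay between the other means in all 9 genes called at 8% against 21%, as it did in 2439 of the 2765 genes called in that comparison (88.2%). Without regard to the test, the 8% libraries were all above the 21% libraries in 18.9% of the 37 genes and all below in 16.2%, against 15.4% and 25.5% of all genes. In either direction, groups did not overlap in 35.1% of the 37 genes and in 40.9% of all genes. The 1% libraries were all above the 21% libraries in 18.9% and all below in 16.2%, against 9.06% and 19.2% of all genes, or 35.1% against 28.3% in either direction. Set against 8%, the 1% libraries were all below in 12 of the 37 genes (32.4%) and all above in 4 (10.8%), against 16.8% and 16.3% of all genes, or 43.2% against 33.1% in either direction. Among those 12 were Calcoco1 and Ulk1, with log2 fold changes of −0.36 (adjusted p = 0.0979) and −0.31 (adjusted p = 0.0923). Both were called at 1% against 8% without 21% replicate 3 (adjusted p = 0.0233 for Calcoco1 and 0.037 for Ulk1). All 5 LC3 and GABARAP genes and all 5 adaptor genes had lower means at 1% than at 8% oxygen, with median log2 fold changes of −0.12 and −0.09. None of these 10 genes passed that test, and 50.8% of all tested genes had negative estimates there.

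**Figure D4:**
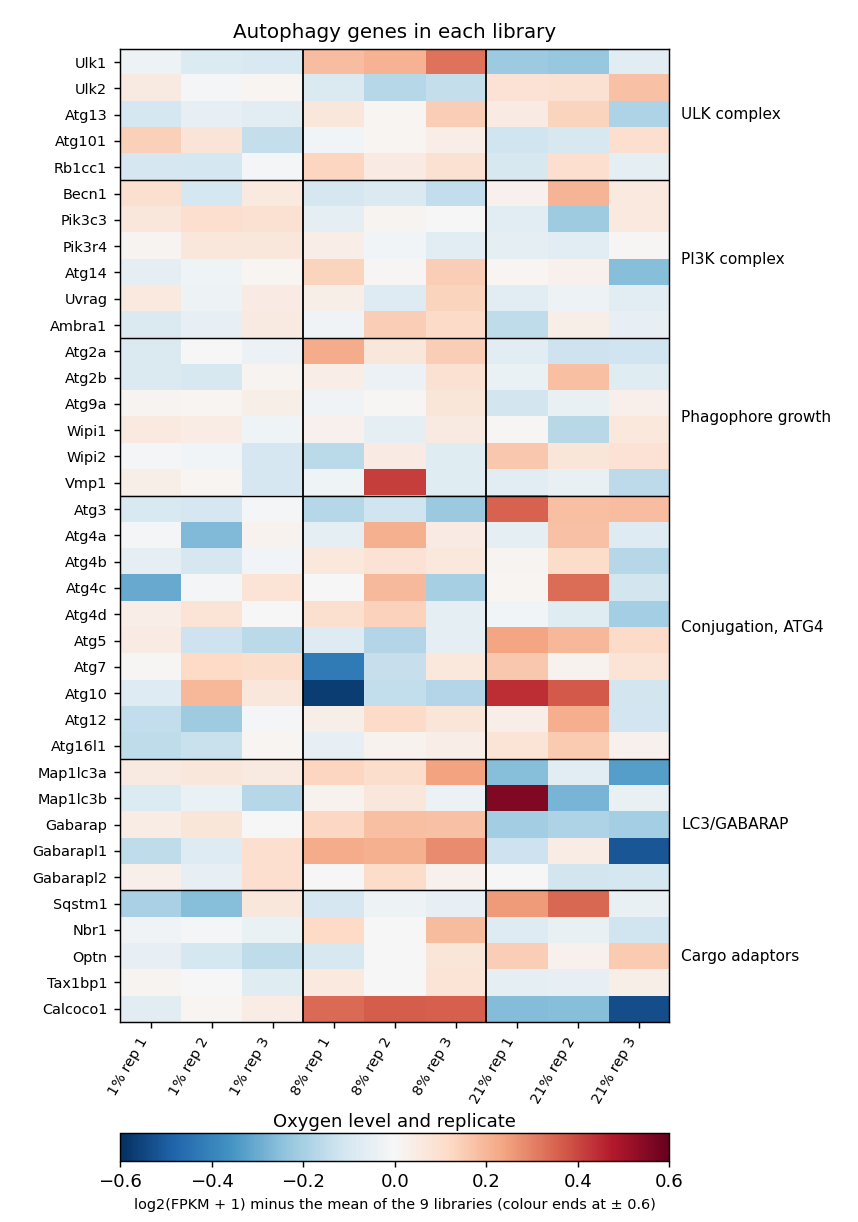
Each gene's log2(FPKM + 1) minus its mean over the 9 libraries, with libraries in columns by oxygen level and genes in rows by role; red is above the gene's mean, blue below, and the colour scale ends at ± 0.6. Gabarap, Gabarapl1, Calcoco1 and Ulk1 are red in the 3 libraries at 8%, while Atg3 and Atg5 are red in the 3 libraries at 21%.

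Sums of other lists were also set side by side. The leukocyte and stromal sums were highest at 8% oxygen, while the hypoxia response sums at 21% overlapped those of both lower levels. The 2 leukocyte markers that passed the filter, Csf1r and Cd68, were part of a marker list that summed to 32.3 to 41.6 FPKM at 1%, 42.4 to 46.7 FPKM at 8% and 19.2 to 29.8 FPKM at 21% oxygen, while Ptprc, which marks all leukocytes, did not exceed 0.0101 FPKM. Nearly all of this sum was Cd68, with a mean of 34.8 FPKM against 0.848 FPKM for Csf1r. Csf1r passed the filter only through the 8% libraries, where it was highest. The stromal list, of which Vim and Pdgfra passed, summed to 795 to 845 FPKM at 1%, 958 to 1024 FPKM at 8% and 775 to 797 FPKM at 21% oxygen. Nearly all of it was Vim, with a mean of 857 FPKM, while at 8% against 21% Pdgfra did not pass the test (log2 fold change −0.08, adjusted p = 0.614). Col1a1 and Col1a2 averaged 0.583 and 0.163 FPKM and did not pass the filter. All their 8% libraries were below all their 21% libraries, as in 25.5% of all tested genes. For Col1a1 the highest 8% value was 0.5076 FPKM and the lowest 21% value 0.5079 FPKM. A list of 9 hypoxia response genes summed to 520 to 613 FPKM at 1%, 309 to 409 FPKM at 8% and 347 to 611 FPKM at 21% oxygen, with Ldha as the largest term at a mean of 273 FPKM. Its genes went both ways at 8% against 21%: Pdk1, Slc2a1 and Vegfa fell, and Adm rose (log2 fold change 1.02, adjusted p = 0.00266 by limma). These were 33.3% lower and 11.1% higher, against 14.9% and 8.38% of all genes. At 1% against 21% Egln3 and Adm rose and none fell (22.2% higher, against 1.35% of all genes). There, 8 of the 9 estimates were positive and 1 was negative. Endothelial markers summed to at most 0.153 FPKM in any library. The part of these differences in the results on autophagy genes was not tested.

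Beyond the 37 genes, 76 other genes of autophagy control, fusion and cargo receptors passed the filter. At 8% against 21% oxygen 7 of them rose and 11 fell (23.7% called, against 23.3% of all tested genes), with a median log2 fold change of −0.03. At 1% against 21% 1 rose and 1 fell (2.63%, against 4.24%). None was called at 1% against 8% oxygen, against 0.127% of all genes, and 21.1% had an unadjusted p under 0.05 by limma there, against 19% of all genes. These shares are all near or below the background. By list, 3 of 26 genes of mTORC1 and lysosomal nutrient sensing rose and 4 fell at 8% against 21%, as 2 and 4 did of 14 paralogs and regulators (26.9% and 42.9% called, against 23.3% of all genes). Of 14 genes of fusion with the lysosome 1 rose and 1 fell, of 6 AMPK genes none rose and 1 fell, of 8 transcription factor genes none rose and 1 fell, and of 8 further cargo receptor genes 1 rose and none fell, or 12.5% to 16.7% called in each of these lists.

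Mtor, the kinase that inhibits the ULK complex when nutrients are ample, had 11.1 ± 0.54 FPKM at 1%, 12.5 ± 0.44 FPKM at 8% and 8.91 ± 0.35 FPKM at 21% oxygen (SD, n = 3 each). It rose at both lower levels, with log2 fold changes of 0.29 (adjusted p = 0.0369) at 1% and 0.44 (adjusted p = 0.00243) at 8% against 21%. Rheb, the small GTPase that activates mTORC1, fell at both, with 18.1 ± 0.02 FPKM at 1%, 17.5 ± 0.62 FPKM at 8% and 22.0 ± 0.83 FPKM at 21% oxygen (adjusted p = 0.0284 and 0.00495 against 21%). Both calls at 1% oxygen were lost without any of the 1% libraries, without 8% replicate 1 and without 21% replicate 1 or 2, that of Mtor also without 8% replicate 3, and that of Rheb also under either rescaling. Sesn2, a stress-induced inhibitor of mTORC1, had 8.29 ± 1.09 FPKM at 1%, 6.33 ± 0.84 FPKM at 8% and 11.8 ± 0.59 FPKM at 21% oxygen. Its log2 fold change was −0.81 (adjusted p = 0.00274) at 8% and −0.47 (adjusted p = 0.0516) at 1% against 21%. Its paralog Sesn3 rose at 8%, with 3.10 FPKM at 8% and 2.25 FPKM at 21% oxygen (log2 fold change 0.34, adjusted p = 0.0107). Others that fell at 8%, given as log2 fold changes, were Tsc2, whose product inhibits Rheb (−0.37, adjusted p = 0.0071), Bcl2, whose product binds Beclin (−0.43, adjusted p = 0.00901), Vps33a, of the tethering complexes at the lysosome (−0.40, adjusted p = 0.00897), and Tmem41b, a scramblase (−0.34, adjusted p = 0.0368). Mitf, of the TFEB family, fell by 0.65 on the log2 scale (adjusted p = 0.0418) and averaged 0.401 FPKM at 8% and 1.22 FPKM at 21% oxygen. Mitf passed the filter only through 1% replicate 1 (1.03 FPKM) and 21% replicates 1 and 2 (1.33 and 1.58 FPKM). Leaving out any of these libraries took it out of the test, and no 8% library exceeded 0.522 FPKM. The calls of Tmem41b and Mitf were both lost without any one of the 8% libraries and without 1% replicate 2. That of Tmem41b was also lost without 1% replicate 1 or 3 or 21% replicate 1, and under either rescaling.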

How the data were processed

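The authors deposited gene-level FPKM for 9 libraries, 3 each at 1%, 8% and 21% oxygen. The build was mm10, and StringTie 1.3.4d, HISAT2 2.0.4, cutadapt 1.9.1 and FastQC 0.11.8 were used, per the submitters' processing notes. Per the labels, the kit was a TruSeq Stranded mRNA kit. For the quantification, the strand setting and annotation release were not given in the sources used here. It is therefore not known whether reads of genes that overlap on opposite strands were told apart. Of the 37 genes, 13 share exon bases with another gene, 3 of them with a gene averaging at least 5 FPKM. The deposited values carry no counts, depth is unknown and no counting interval is given. FPKM sums lay between 317704 and 333178 per library.

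A gene was tested if 3 or more libraries reached 1 FPKM. The log2(FPKM + 1) values were fitted with limma 3.58.1 (R 4.3.3) in a model of group means over all 9 libraries with a mean-variance trend. The pseudocount of 1 understates the change of low genes. P-values are two-sided and adjusted by Benjamini-Hochberg over 11856 genes, with calls at 0.05. Positive log2 fold changes mean higher at the lower oxygen level. Alternatives were other pseudocounts (0.1 and 0.5), other filters, rescaling, no trend, a replicate block, the 6 compared libraries alone and each library left out. The 37 genes, the role groups and the other lists were chosen with earlier results of these data known. All 37 may be named, with full values for called genes. Of the other autophagy genes, up to 8 called per comparison are named by absolute log2 fold change.

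Coordinates are 1-based, from GENCODE M21 (GRCm38, the same assembly as mm10). All 37 identifiers matched with the same symbol. Promoter sequences are RefSeq's, and that of Atg3 was cut at the GENCODE gene start, 44 bases before its RefSeq start.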

Additional observations from a re-analysis of the deposited data

How the results depend on the processing

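Of the 37 genes, 9 were called at 8% against 21% oxygen, and 6 to 10 were called without single libraries and 7 to 10 under the other alternatives. Over all tested genes, where 23.3% were called, the shares were 12.5% to 25.3% without single libraries. They were 7.53% to 28.7% under the other alternatives. Ulk1, Ulk2, Atg3, Map1lc3a, Gabarap and Calcoco1 were called at 8% against 21% under all 18. At 1% against 21% oxygen the count of 2 went to 1 with no filter, to 0 with only the 6 libraries compared and to a range of 0 to 4 without single libraries. The shares of all tested genes called were then 0.839%, 0.638% and 0.534% to 7.45%, against 4.24% as reported. At 1% against 8% the count of 0 went to 2 with only the 6 libraries compared (Calcoco1 and Ulk1) and lay at 0 to 2 without single libraries, where leaving out 21% replicate 3 gave the 2. The share of all tested genes called rose as well, from 0.127% to 4.26% with only the 6 libraries compared and to 3.67% without 21% replicate 3. The F test's 8 became 5 with no filter and lay at 3 to 9 without single libraries. Leaving out libraries or genes changes the number of samples or tests; otherwise the cause was not tested. The labels do not say whether the replicate numbers pair the samples. Deviations of same-numbered libraries correlated at −0.303 to 0.095, and those of libraries with different numbers at −0.132 to 0.246. With 3 libraries per level, such correlations cannot settle whether the samples were paired. With the replicate number as a block, 7, 0 and 0 genes were called at 8% against 21%, 1% against 21% and 1% against 8%, and 4 by the F test. Over all tested genes the block left 1849, 72 and 1 calls, against 2765, 503 and 15. The 28 single-gene results followed were 21 that were called in the model as reported, with others added by hand. Of the 21, 12 were called under every alternative run. None of the 28 changed direction, but this says little. Most were chosen for being called, and the alternatives reuse the same libraries. Rescaling moved the share of higher calls over all genes at 8% against 21% to 49.9% (median-ratio) or 46.6% (quantile), against 35.9% as deposited, and at 1% against 21% to 54.3% or 47.7%, against 31.8%. Without counts, the precision of low genes such as Pik3r4 cannot be given.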

Other observations

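A few values among the other autophagy genes, chosen after their values were seen, lie outside the comparisons above. Atg9b, the paralog of the scramblase gene Atg9a, averaged 31.0 FPKM over the 9 libraries, against 7.46 FPKM for Atg9a. The ratio of Atg9b to Atg9a was 3.97 ± 0.19 at 1%, 3.92 ± 0.15 at 8% and 4.63 ± 0.51 at 21% oxygen (SD, n = 3 each). Nos3, which overlaps Atg9b on the other strand, averaged 0.124 FPKM. Some genes were spread within a level: Akt1s1, which encodes an mTORC1 inhibitor, had 9.47, 17.4 and 21.9 FPKM at 1% oxygen, and Ncoa4, the ferritin receptor gene, had 4.35, 10.6 and 7.37 FPKM there.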
